A study of Mus musculus with 8 samples.

Results

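Transcripts of 9 genes that are widely used to recognise pericytes were measured in single cells of the mouse mammary gland: *Rgs5*, *Rgs4*, *Pdgfrb*, *Cspg4*, *Des*, *Abcc9*, *Kcnj8*, *Mcam* and *Higd1b*. They were chosen by symbol as a list, and all 9 were found among the 27998 genes of the deposited count matrices. The cells came from C57BL/6N mice at 4 stages with 2 mice each: nulliparous at 8 weeks of age (NP), pregnant on day 14.5 (G), lactating on day 6 (L), and 11 days after pups had been weaned naturally (PI). Each library held 1 mouse, and cells had been sorted for the epithelial surface protein EpCAM after the removal of cells with the endothelial protein CD31, the leukocyte protein CD45 or the erythroid protein Ter119. The clusters C1 to C19 are those of the deposited annotation, in which C1 to C11 are luminal, C12 to C14 basal and C15 the *Procr*+ cells. C16 to C19 are clusters the study set aside as non-epithelial. Mice are named by stage and replicate (L1 and L2 are the lactating mice).

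Pericytes are the mural cells of capillaries. They sit in the basement membrane of the endothelial tube, are held there by PDGF-B from endothelial cells acting on PDGFRβ, and share a continuum of contractile genes with the smooth muscle of larger vessels. No single transcript is found only in pericytes: fibroblasts also use PDGFRβ, endothelial cells also carry *Mcam*, and muscle cells also make desmin, so that the genes are commonly read together.

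The 9 genes lie at 7 places in the mouse genome, since 4 of them form 2 neighbouring pairs. In the GRCm38 annotation, *Rgs5* (chr1:169655501-169695813, plus strand) and *Rgs4* (chr1:169741477-169747642, minus strand) face each other across 45.7 kb, with 0 protein-coding genes between them. *Kcnj8* (chr6:142564837-142571614) and *Abcc9* (chr6:142587862-142702315), both on the minus strand, are 16.2 kb apart, again with 0 protein-coding genes in between. The promoters of both pairs are shown because neighbouring genes with shared cell types are compared in the results. They are RefSeq windows of 300 bases on GRCm38.p6, written on the strand of the gene from 250 bases before the start site, and capitals mark matches to 6 short motifs that were searched on both strands.

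*Rgs5* (chr1:169655251-169655550, plus strand): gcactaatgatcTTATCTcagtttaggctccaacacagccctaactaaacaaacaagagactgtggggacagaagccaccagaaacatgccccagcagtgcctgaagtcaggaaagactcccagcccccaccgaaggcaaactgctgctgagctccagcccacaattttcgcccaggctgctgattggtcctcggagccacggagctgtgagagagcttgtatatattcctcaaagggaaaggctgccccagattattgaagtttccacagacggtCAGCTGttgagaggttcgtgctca

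*Rgs4* (chr1:169747593-169747892, minus strand): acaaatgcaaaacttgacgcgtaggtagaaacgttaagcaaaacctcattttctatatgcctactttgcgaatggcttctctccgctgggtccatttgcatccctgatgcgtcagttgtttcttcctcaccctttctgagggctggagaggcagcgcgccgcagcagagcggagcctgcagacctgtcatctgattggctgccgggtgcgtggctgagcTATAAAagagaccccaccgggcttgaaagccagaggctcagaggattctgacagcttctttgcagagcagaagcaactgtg

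*Kcnj8* (chr6:142571565-142571864, minus strand): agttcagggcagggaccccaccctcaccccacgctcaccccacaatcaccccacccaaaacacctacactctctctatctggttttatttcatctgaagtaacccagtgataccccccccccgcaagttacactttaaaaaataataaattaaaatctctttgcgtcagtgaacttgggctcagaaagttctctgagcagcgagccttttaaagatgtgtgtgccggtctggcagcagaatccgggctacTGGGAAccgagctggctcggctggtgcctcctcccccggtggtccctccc

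*Abcc9* (chr6:142702225-142702524, minus strand): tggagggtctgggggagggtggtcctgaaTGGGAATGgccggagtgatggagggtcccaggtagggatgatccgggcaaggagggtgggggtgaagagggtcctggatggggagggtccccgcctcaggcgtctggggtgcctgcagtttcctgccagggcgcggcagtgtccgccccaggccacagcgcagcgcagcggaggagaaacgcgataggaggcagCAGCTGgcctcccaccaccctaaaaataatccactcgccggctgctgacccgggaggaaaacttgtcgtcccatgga

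The motifs were the CArG box of serum response factor, the RBPJ core TGGGAA of Notch signalling, the TEAD site CATTCC, the GATA core AGATAA, the E-box CAGCTG and the TATA sequence TATAAA. Of 32851 promoter windows, 1.63% held the CArG box, 25.6% TGGGAA, 14.7% CATTCC, 11.2% AGATAA, 16.3% CAGCTG and 13.6% TATAAA. In *Rgs5* the capitals mark the GATA core on the reverse strand, 238 to 233 bases before the start, and the E-box at bases 27 to 32 after it. *Rgs4* held TATAAA from -31 to -26. *Kcnj8* held TGGGAA at its first 6 bases, and in *Abcc9* the same letters lay from -221 to -216 and overlapped CATTCC on the reverse strand. *Abcc9* also had the E-box from -27 to -22. The CArG box matched in 0 of the 7 member windows in the table, which left out *Pdgfrb* and *Higd1b*. A match is a description of letters in this window and says nothing about binding.

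Of 25806 barcodes, 25009 cells passed the authors' filters, and 0 barcode sequences were shared between libraries among them. The 8 libraries held 13306760 to 34552742 UMIs (unique molecular identifiers, which count captured transcripts) in passing cells. Cells of lactating mice were shallowest, with medians of 3770 and 4258 UMIs, against 5825.5 to 9624 in the other mice. UMIs were summed per mouse and cluster wherever at least 20 cells were present, which gave 51 sums, and levels are given as CPM, in which the total of each sum is scaled to the same size. C15 gave sums only in the lactating mice, with 205 cells in L1 and 57 in L2, beside 1 cell of NP2 and 2 of PI1. The sums of C18 held 284 and 52 cells in L1 and L2, those of C19 held 191 and 51, and those of the basal cluster C14 held 4637 and 3104.

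The 9 genes together made up 7231 CPM of C15 in L1 and 6732 CPM in L2. Outside C15 the highest of 49 sums was C19 of L1, with 993.9 CPM, and the highest luminal sum was C11 of L1, with 44.4 CPM. For 6 of the 9 genes both C15 sums lay above every other sum, while *Pdgfrb* was as high in C18, and *Abcc9* and *Kcnj8* overlapped with C19. Clusters had been called on these same counts, so the levels describe the clusters and are no independent evidence that they are separate.

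*Rgs5* and *Rgs4* encode GTPase activators that shorten the signals of G protein-coupled receptors such as those for angiotensin and endothelin. *Rgs5* was at 4288 CPM in C15 of L1 and 3560 CPM in C15 of L2. The next highest sums were all C19, at 516.1 CPM in L1, 469.9 in G2, 290.3 in G1 and 153.2 in L2, so that the lower C15 sum was 6.9 times the highest of them. In C18 the gene had 0 UMIs in NP and G mice and 10.25, 4.335 and 36.25 CPM in L1, L2 and PI2.

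*Rgs4* was also highest in C15. Its C15 sums were 897.3 CPM in L1 and 1215 CPM in L2, and the highest sum elsewhere was C19 of L1, at 76.74 CPM. All 4 C19 sums lay close together, from 56.2 to 76.74 CPM, a narrower range than that of *Rgs5* in the same sums. In C18 *Rgs4* reached 65.26 CPM in PI2, from 9 UMIs and within the range of C19, and 34.68 CPM in L2, from 8.

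The surface proteins of the list divided between clusters. *Pdgfrb*, the receptor for endothelial PDGF-B, was at 231.3 and 209.1 CPM in C15 of L1 and L2. C18 of G2 was higher, at 339 CPM from 51 UMIs, and C18 of G1 was at 181.1 CPM from 40 UMIs, so the C18 and C15 sums overlapped. The other C18 sums ran from 65.58 to 104 CPM, and both pregnant mice lay above the NP, L and PI mice in this cluster; this order was not tested. C19 held 8.064 to 37.13 CPM.

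*Cspg4*, the proteoglycan NG2 of the pericyte surface, was at 107.1 and 129 CPM in C15, and the next sum, C18 of NP1, was at 14.44 CPM from 2 UMIs. *Mcam*, the adhesion molecule CD146, was the member with the broadest range of clusters. It was at 256.2 and 351.5 CPM in C15, at 71.81 to 112.9 CPM in C19, at 33.4 to 80.67 CPM in C12 and C14, and at 9.608 and 11.37 CPM in C13. It was also found in luminal sums, up to 16.32 CPM in C7 of PI2, whereas 5 of the 7 C18 sums had 0 UMIs.

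*Des*, the intermediate filament of muscle and mural cells, was at 815.1 and 921.1 CPM in C15, 12.9 times or more above every other sum. C19 of G2 followed at 63.08 CPM, and C14 was at 18.41 and 30.63 CPM. *Higd1b* encodes a small mitochondrial protein of the hypoxia-induced family. It was at 442.5 and 267 CPM in C15, at 12.1 to 58.17 CPM in C19, and at 0 UMIs in 6 of the 7 C18 sums.

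*Kcnj8* and *Abcc9* encode the pore (Kir6.1) and the regulatory subunit (SUR2) of the ATP-sensitive potassium channel of vascular cells. *Abcc9* was at 108.7 CPM in C15 of L1 and 66.74 CPM in C15 of L2, from 70 and 15 UMIs, and C19 of L1 and of G2 reached 76.74 and 68.23 CPM. *Kcnj8* was at 85.39 CPM in C15 of L1 but 13.35 CPM in L2, from 55 and 3 UMIs, and the C19 sums of 12.1 to 69.31 CPM took in the L2 value and lay below that of L1. The ranges of both genes overlapped between C15 and C19 across mice. Within each lactating mouse the C15 sum was the higher. For *Abcc9* it was 108.7 against 76.74 CPM in L1 and 66.74 against 12.1 in L2. For *Kcnj8* it was 85.39 against 69.31 CPM in L1 and 13.35 against 12.1 in L2, from 3 UMIs each. *Kcnj8* was low in luminal cells, with 0 UMIs in 19 of 25 luminal sums.

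**Figure D1:**
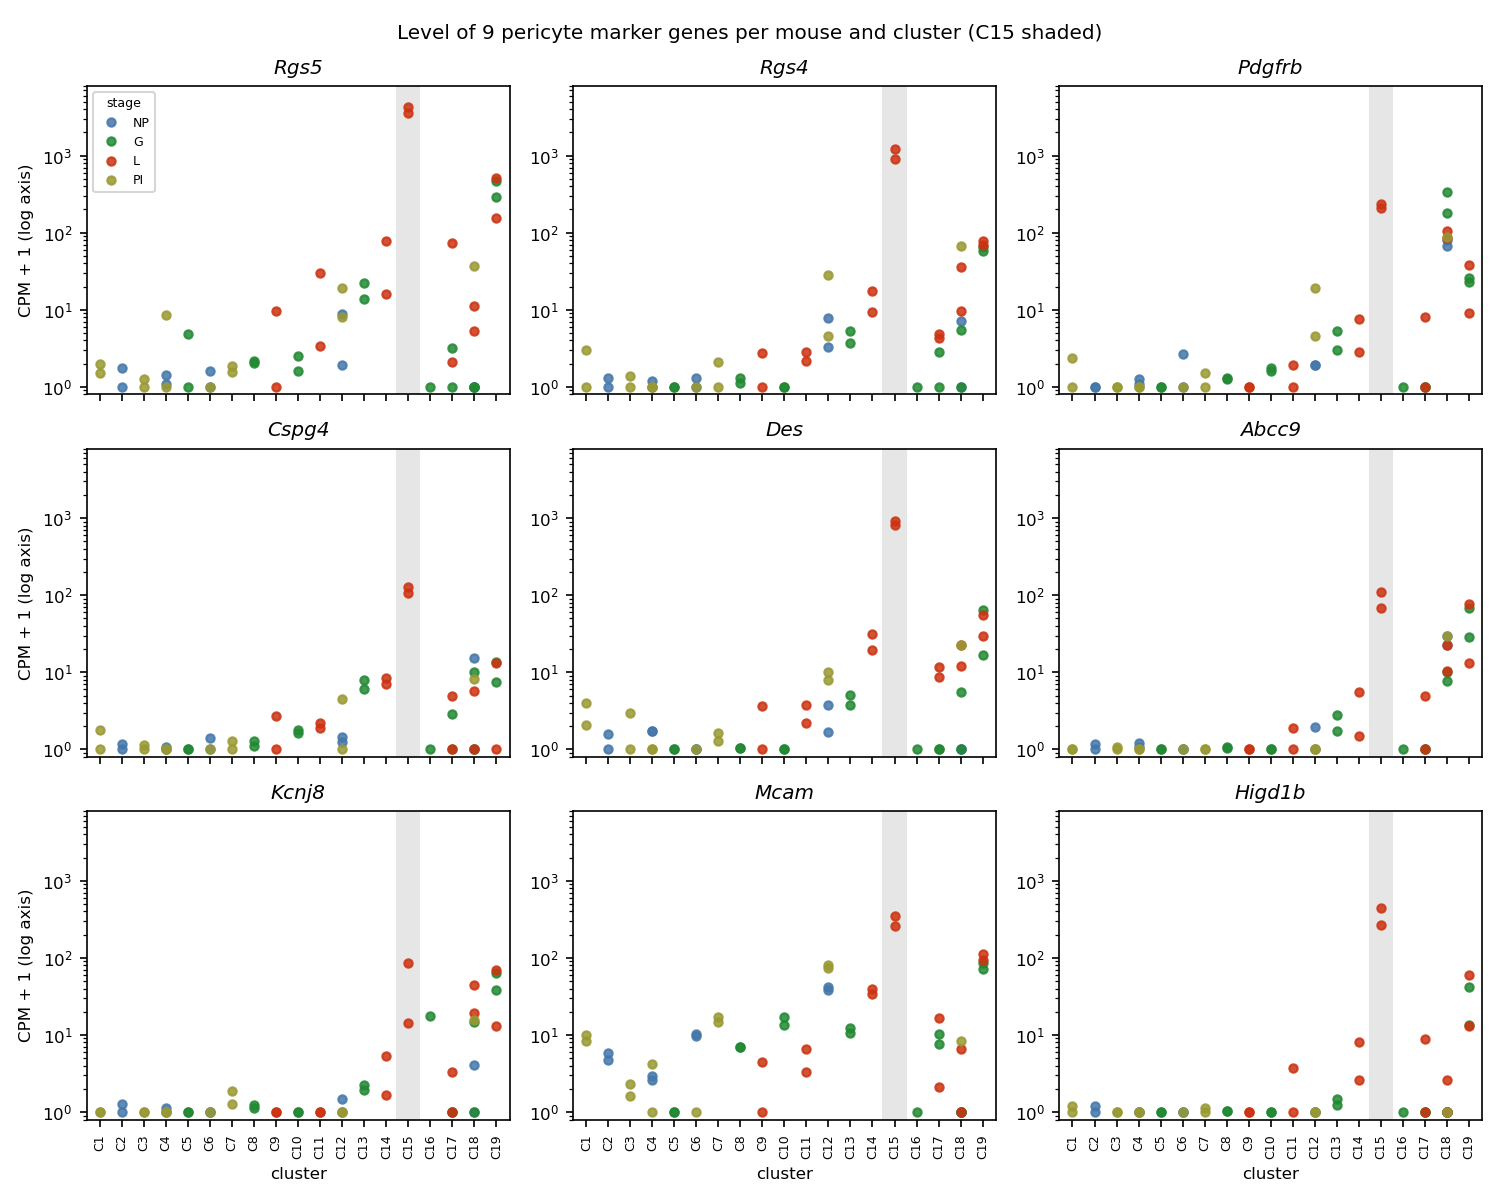
Level of each gene in CPM + 1 (log axis) in the clusters C1 to C19, 1 point per mouse and cluster of 20 or more cells, coloured by stage, with C15 shaded. The C15 points of *Rgs5*, *Rgs4*, *Cspg4*, *Des*, *Mcam* and *Higd1b* stand above all other points; *Pdgfrb* is as high in C18, and *Abcc9* and *Kcnj8* overlap with C19.

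Sums of C14, C15, C18 and C19 from the same 2 lactating mice were compared in 1 fit of edgeR's quasi-likelihood test with the mouse as a term, over 8855 genes. The adjusted p-values below (Benjamini-Hochberg over those genes) set a difference against how unevenly the cluster levels held in the 2 mice. The mouse term takes out differences shared by all clusters of a mouse. The variance of each gene is drawn largely toward that of other genes (3 residual against a median of 12.3 prior degrees of freedom). Since the clusters came from these counts, the p-values are no independent test of the cluster identity. The clusters here come from the same 2 mice. For the stage comparisons further below, of 2 mice against 2 others, no exact permutation test can go below p = 0.333.

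C18 had the collagen genes of fibroblasts at their highest level, with *Col1a1* at 5176 and 4847 CPM in L1 and L2 against 200.3 and 35.6 CPM in C15. Against C18, 8 of the 9 genes were higher in C15, where 14.1% of all genes tested were higher, and 0 were lower, where 15% of all genes were (29.1% in either direction). *Cspg4* and *Higd1b* passed the filter on low counts only because of their C15 sums. Their calls as higher, here and against C19 and C14, were therefore partly set by the filter. Without the filter no called member lost its call. The median log2 difference of the 9 genes was 5.82, and that of all genes was 0.00. *Rgs5* differed by 9.20 ± 0.54 (SE) on the log2 scale (adjusted p = 7.45e-09), *Rgs4* by 6.18 ± 0.44 (3.78e-08) and *Des* by 5.83 ± 0.34 (6.22e-09). *Mcam* (5.82 ± 0.38), *Cspg4* (4.77 ± 0.55) and *Abcc9* (3.12 ± 0.63) followed, with adjusted p = 1.78e-08, 6.89e-06 and 0.00135. *Higd1b* rested on 2 UMIs in C18 against 345 in C15, a ratio of 298 with an exact counting interval of 81.7 to 2470. *Pdgfrb* had the smallest difference that passed, 1.27 ± 0.35 (adjusted p = 0.0121); it did not pass with DESeq2 or without the mouse term, and *Abcc9* did not pass with DESeq2. Within L1 and L2 alone the log2 ratios were 3.37 and 1.5 for *Abcc9*, and 1.36 and 0.90 for *Pdgfrb*. *Cspg4* had a log2 ratio of 4.28 within L1, and in L2 it had 0 UMIs in C18. *Kcnj8* did not pass (1.33 ± 0.63, adjusted p = 0.137; it passed without the filter on low counts), and its direction was opposite in the 2 mice, with a log2 ratio of 2.11 within L1 and -1.77 within L2.

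C19 carried the endothelial genes, with *Pecam1* (CD31) at 1180 and 987.8 CPM in L1 and L2 against 18.63 and 26.7 CPM in C15. Against C19, 7 of the 9 genes were higher in C15, where 13.2% of all genes tested were higher, and 0 were lower, where 14.4% of all genes were (27.6% in either direction). Differences were 4.25 ± 0.28 for *Des* (adjusted p = 4.19e-08), 3.95 ± 0.35 for *Rgs4* (4.79e-07) and 3.93 ± 0.36 for *Rgs5* (6.43e-07). *Mcam* differed least among those that passed, by 1.66 ± 0.24 (6.41e-05). *Abcc9* (0.97 ± 0.51, adjusted p = 0.183) and *Kcnj8* (0.38 ± 0.57, 95% interval -0.73 to 1.49, adjusted p = 0.682) did not pass. *Abcc9* passed when only the 2 clusters compared were fitted, and when cells were thinned to equal depth.

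C14, the contractile myoepithelial cells of the lactating gland, differed from C15 in all 9 genes, all of them higher in C15, where 15.6% of all genes tested were higher and 18.7% lower (34.2% in either direction). The differences ran from 2.80 ± 0.20 for *Mcam* (adjusted p = 1.83e-08) to 6.61 ± 0.38 for *Rgs5* (2.31e-09). *Rgs4* was at 1056 ± 225 CPM in C15 (mean ± SD, n = 2 mice) and 12.4 ± 5.77 CPM in C14. *Des* was at 868 ± 75.0 CPM and 24.5 ± 8.64 CPM.

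The other mural cell genes moved with the members. Of 18 genes on that list, 16 could be tested, and 14 were higher in C15 than in C18, 12 higher than in C19 and 15 higher than in C14. Over all genes tested, 14.1%, 13.2% and 15.6% were higher, and these shares also apply to the lists below. This list and those below were chosen with earlier results of these data known. *Notch3*, the receptor by which mural cells take up endothelial Jagged signals, was at 580.6 and 480.6 CPM in C15, below 5 CPM in C18 and at 56.94 and 44.35 CPM in C19. *Cox4i2*, a lung-type subunit of respiratory complex IV, differed between C15 and C18 by 7.45 ± 0.50 (adjusted p = 2.33e-08), and the connexin *Gja4* rested on 3 UMIs in C18, with a ratio of 176 (counting interval 59.8 to 861). In C19 *Gja4* was at 355.2 and 439.5 CPM, beside 352.4 and 356 CPM in C15. Against C19 the Notch target *Heyl* (4.70 ± 0.44, adjusted p = 8.99e-07) and *Ndufa4l2* (4.60 ± 0.37, 1.87e-07) led. The peptidase *Anpep* was lower in C15 than in C18, by -0.96 ± 0.35 (adjusted p = 0.05, just inside the threshold).

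Genes of smooth muscle contraction separated C15 from all 3 clusters, but not in 1 direction. Of 11 genes, 9 were higher in C15 than in C18 and 9 higher than in C19, and against C14 only 1 was higher and 8 were lower. *Tagln*, an actin-binding protein, was at 7013 and 8187 CPM in C15 of L1 and L2, at 11000 and 9237 CPM in C14 and at 366 and 182.1 CPM in C18. *Myl9*, a myosin light chain, differed between C15 and C19 by 4.03 ± 0.24 (adjusted p = 2.15e-08). *Myocd*, the coactivator of serum response factor in smooth muscle, was the gene higher in C15 than in C14. It had 48 UMIs in C15 and 0 in C18 and C19, which makes it at least 27.6-fold and 19.4-fold higher against a floor of 3 counts over the group.

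Defining genes of the other cell types were mostly below the levels of the clusters they mark. The fibroblast receptor *Pdgfra* had 0 UMIs in C15 against 284 in C18, at least 54.9-fold lower, and all 10 fibroblast genes were lower in C15, led after *Pdgfra* by *Lum* (-8.55 ± 0.52, adjusted p = 9.78e-09). Against C19, 3 of those 10 were higher in C15, with *Col1a2* at 490.6 and 133.5 CPM and *Col1a1* leading, and *Fn1* was lower. Against C14, 4 of the 10 were higher and 1 lower (median log2 difference 0.91, and 2.07 with the gene at 0 set to its bound). The summed level of the 10 fibroblast genes differed between the mice in C15, at 1649 CPM in L1 and 404.9 CPM in L2, beside 710.5 and 537.9 CPM in C14, 511.2 and 524.1 CPM in C19 and 40310 and 40550 CPM in C18. Their part in the differences of the members was not tested. All 10 endothelial genes were lower in C15 than in C19, by -6.83 ± 0.44 for *Emcn* (3.92e-08), and *Kdr* had 2 UMIs in C15, 139 times less (counting interval 38.1 to 1150). Against C18, 3 endothelial genes were higher in C15, among them *Pecam1* (15.5 times, interval 3.72 to 138, from 2 UMIs in C18) and *Flt1* (3.54 ± 0.73, adjusted p = 0.00153), and *Tek* was lower (-3.43 ± 0.54). All 9 epithelial genes were lower in C15 than in C14, and 0 of 9 differed from C18 or C19. *Epcam*, on which the sort was based, was at 18.63 and 13.35 CPM in C15, 17.35 and 8.67 CPM in C18, and 132.8 and 161.7 CPM in C14. Among immune genes 2 of 8 could be tested, and *Cd74* was lower in C15 than in C19 (-1.97 ± 0.24, adjusted p = 1.38e-05). Of the Schwann cell genes 4 of 5 were tested: 3 were lower in C15 than in C18, with *S100b* at 0 UMIs in C15 (at least 7.54-fold lower). Red blood cell genes were too low to be tested, and of 7 milk protein genes only *Csn3* was higher in C15 than in C19 (0.76 ± 0.27, adjusted p = 0.0452), with 0 called against C18.

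Single cells of C15 carried the genes at different rates. A UMI of *Des* was found in 86.8% of C15 cells in L1 and 89.5% in L2, of *Rgs4* in 81.0% and 94.7%, and of *Rgs5* in 77.6% and 71.9%. *Higd1b* was found in 56.6% and 50.9%, *Mcam* in 48.8% and 68.4%, and *Pdgfrb* in 45.4% and 47.4%. The lowest shares were those of *Cspg4* (26.8% and 40.4%), *Abcc9* (44 of 205 and 8 of 57 cells) and *Kcnj8* (14.6% and 5.26%). Median depth was 2895 UMIs in L1 and 3683 in L2. The exact 95% intervals of L1 and L2 overlapped for all 9 genes, and they cover counting error only.

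Luminal cells of the same mice (C9 and C11) had median depths of 6691 to 16271 UMIs. Their shares were 0% to 9.52% for *Rgs5*, 0% to 2.38% for *Rgs4* and 0% for *Kcnj8*. For *Des* they were 0% to 4.255%, and for *Mcam*, which other luminal clusters also held, 0% to 4.76%. With every cell thinned to 1000 UMIs, *Rgs5* was left in 67.3% and 66.7% of C15 cells and in at most 2.38% of luminal cells. *Des* was left in 62.9% and 54.4%, *Rgs4* in 52.7% and 63.2% and *Kcnj8* in 5.85% of L1. In L2 3 of 57 cells had a UMI of *Kcnj8* before thinning and 0 after it.

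**Figure D2:**
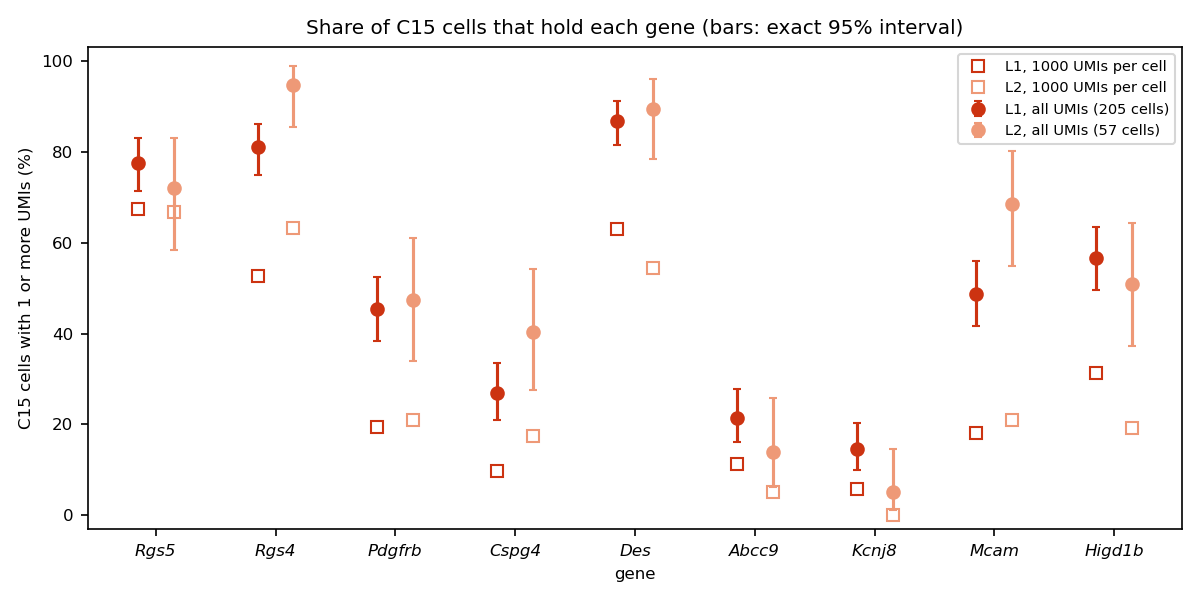
Share of C15 cells with 1 or more UMIs of each gene (vertical axis, %) in L1 (205 cells) and L2 (57 cells); filled circles use all UMIs with exact 95% intervals, open squares use cells thinned to 1000 UMIs. *Des*, *Rgs4* and *Rgs5* are found in most cells, and *Abcc9* and *Kcnj8* in fewer than 22%.

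Most C15 cells held several of the genes at once. In L1, 188 of 205 cells (91.7%) had UMIs of 3 or more members, and in L2 55 of 57 (96.5%). Between 4 and 6 members were found in 68.8% and 66.7% of cells, no C15 cell had all 9, and 1 cell of L1 had none. At 1000 UMIs per cell the shares with 3 or more were 56.1% and 47.4%, and with 2 UMIs required for each gene they were 59.5% and 68.4%. In C18, 5 of 284 and 1 of 52 cells of L1 and L2 had 3 or more members. In C19 it was 26 of 191 (13.6%) and 3 of 51 (5.88%), and in C14 132 of 4637 (2.85%) and 28 of 3104 (0.902%).

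**Figure D3:**
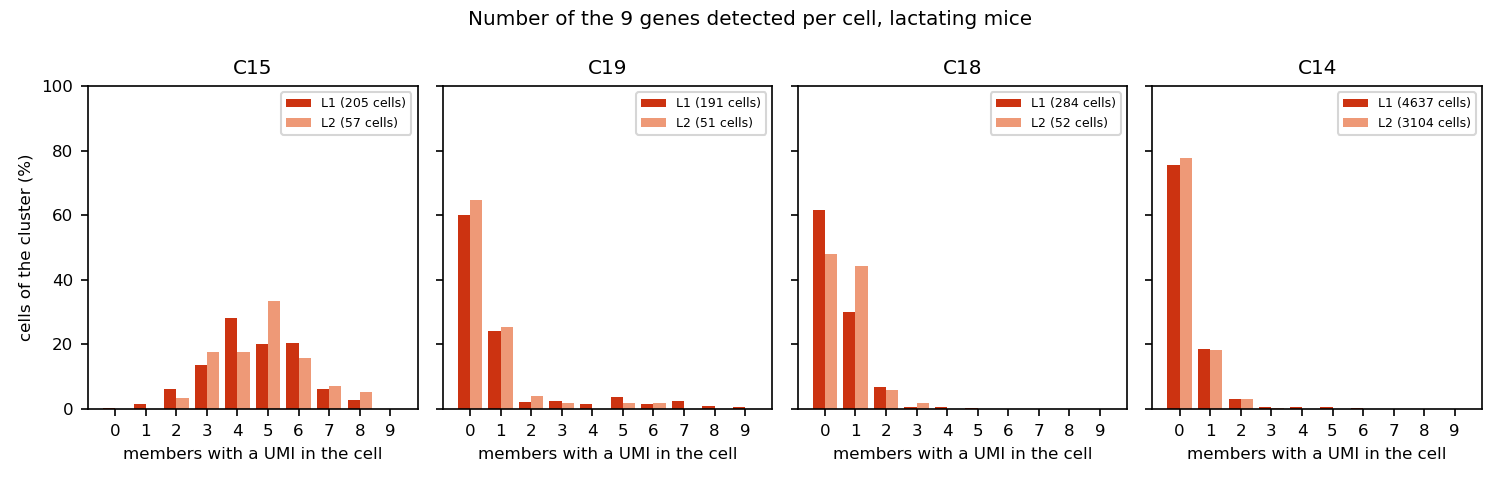
Percent of cells of C15, C19, C18 and C14 (vertical axis) by the number of the 9 genes with a UMI in the cell (horizontal axis), in L1 and L2. C15 cells centre on 4 to 6 genes, whereas most cells of the other clusters hold none or 1, and 26 C19 cells of L1 hold 3 or more.

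Within C15 the genes did not vary together as 1 group. The potassium channel pair overlapped most: in L1, 18 of 30 cells with *Kcnj8* (60.0%) also had *Abcc9*, against 26 of 175 cells without it (14.9%), and the share held at equal depth, at 8 of 12 cells (66.7%) against 15 of 193 (7.77%). In L2 only 3 cells had *Kcnj8*, 1 of them with *Abcc9*. All 30 *Kcnj8* cells of L1 and all 3 of L2 had *Rgs5*. Cells with *Abcc9* had *Pdgfrb* in 63.6% and 62.5% of cases in L1 and L2, against 40.4% and 44.9% of the cells without. *Rgs4* went the other way in L1, where 68.2% of *Abcc9* cells but 84.5% of the rest had it, and in L2 all 8 *Abcc9* cells had *Rgs4*.

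Correlations of UMI shares across C15 cells (Spearman's rho, 205 cells in L1 and 57 in L2, cells of 1 library each) were weak among the members. *Rgs5* had rho = 0.285 and 0.320 with *Abcc9*, 0.281 and 0.210 with *Higd1b*, and 0.164 and 0.310 with *Pdgfrb*. With *Myh11*, the smooth muscle myosin heavy chain, *Rgs5* had rho = -0.494 in L1 and -0.501 in L2, and at 1000 UMIs per cell -0.344 and -0.299. *Tagln* gave -0.354 and -0.382, and *Acta2*, the smooth muscle actin, -0.303 and -0.125. *Kcnj8* and *Abcc9* were also below 0 with *Myh11* in both mice, though in L2 only 3 cells had *Kcnj8*. So were *Pdgfrb* (-0.206 and -0.154) and *Des* (-0.016 and -0.365), while *Cspg4* (0.158 and 0.323) and *Mcam* (0.152 and 0.136) were above 0. *Rgs4*, the neighbour of *Rgs5*, differed from it: its rho with *Rgs5* was -0.209 in L1 and 0.0142 in L2, and with *Myh11* 0.320 and 0.0626. UMI shares of a cell sum to 1, so that an abundant transcript lowers the share of the others.

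Levels were also compared between C15 cells with and without a UMI of *Abcc9* or *Kcnj8*. The 56 cells of L1 with a UMI of *Abcc9* or *Kcnj8* held 5913 CPM of *Rgs5*, 700.1 of *Higd1b*, 552.5 of *Rgs4* and 1017 of *Myh11*, and the other 149 cells held 3644, 340.3, 1034 and 2248 CPM. In L2 the 10 such cells held 6577 CPM of *Rgs5*, 1203 of *Rgs4* and 1644 of *Myh11*, and the other 47 held 2891, 1217 and 2679 CPM. *Rgs5* was higher and *Myh11* lower in the cells with such a UMI in both mice, while *Rgs4* differed in L1 only. At these low counts a cell without a UMI may still hold the transcript. *Notch3* went from 589.6 CPM without to 557.9 with such a UMI in L1, and *Ndufa4l2* from 1656 to 1657. In L2 *Notch3* went from 521.8 to 294.5 CPM, the latter from 12 UMIs in 10 cells, and *Ndufa4l2* from 1609 to 1816. These cells were chosen by 2 of the members, and their median depths were 3136 and 2840 UMIs in L1. *Pecam1* was at 32.82 against 13.01 CPM in L1 and 122.7 against 5.435 CPM in L2. *Col3a1* was at 1357 against 496.4 CPM in L1 and 319.1 against 114.1 CPM in L2. Their part in these differences was not tested.

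**Figure D4:**
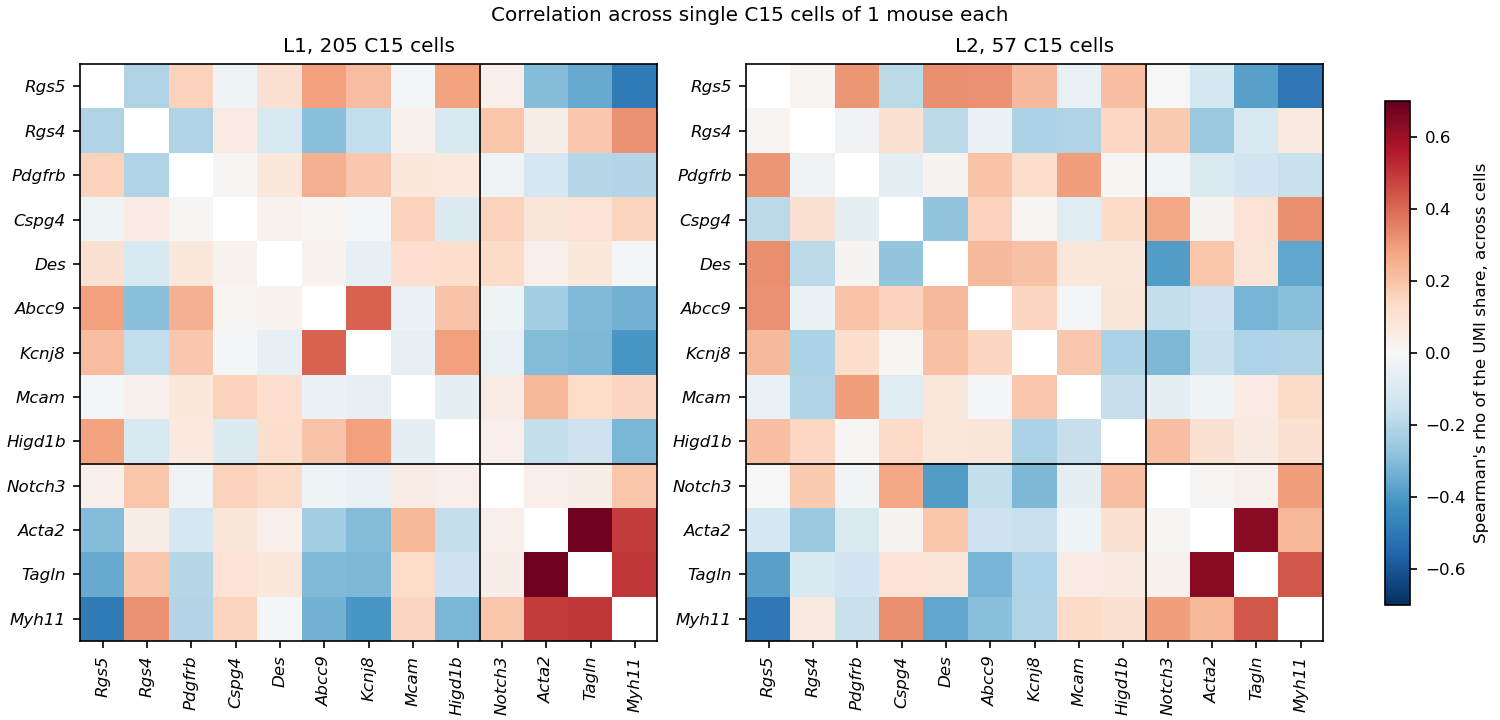
Spearman's rho (colour, from blue below 0 to red above 0) of UMI shares between the 9 genes, *Notch3* and 3 contractile genes across the 205 C15 cells of L1 and the 57 of L2; the diagonal is blank. *Rgs5*, *Abcc9*, *Kcnj8* and *Pdgfrb* are blue against *Myh11* in both mice (*Rgs5* -0.494 and -0.501), and *Rgs4* is not. In L2 only 3 cells had *Kcnj8*.

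Outside C15, most *Rgs5* UMIs of C19 and C14 lay in few cells. Not all members were so concentrated. In basal cells of L1, 692 of 811 *Mcam* UMIs and 117 of 159 *Cspg4* UMIs lay outside cells with 3 or more members. For *Rgs4* it was 65 of 348. In C19, the cells with 3 or more members were 26 of 191 in L1 and 3 of 51 in L2 and held 97.1% and 89.5% of the *Rgs5* UMIs of that cluster, a share that the choice of cells by members raises. These cells also carried genes that did not choose them: *Notch3* in 73.1% of the 26 cells of L1, against 0.606% of the other 165, and *Ndufa4l2* in 76.9% against 1.82%. *Pecam1* was found in 92.3% of the 26 cells, against 93.9% of the others, and *Cdh5* in 92.3% against 90.9%, so mural and endothelial transcripts were found in the same barcodes. Their median depth was 5356 UMIs against 2977. In C14 of L1 the 132 cells with 3 or more members held 83.1% of the *Rgs5* UMIs, a share raised in the same way. They carried *Krt14* in 100%, against 99.78% of the other 4505 cells, and *Notch3* in 59.9% against 0.84%. Their median depth was 6991.5 UMIs against 3617. The study removed 1 cluster as doublets, and no doublet caller was run here. When the cells of C14, C18 and C19 with 3 or more members were left out, all 9 genes were higher in C15 than in C19. Over all genes, 2557 of 8516 were called in that setting, 48.8% of them higher. The setting was chosen after seeing the data and by its construction removes the members from C19.

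Basal cells were compared between stages in sums over C12, C13 and C14 of all 8 mice, over 11870 genes. Most NP and PI basal cells lie in C12, most G cells in C13 and most L cells in C14, so that stage and cluster cannot be told apart in comparisons with G or L. In such sums fewer cells that express a gene and less RNA per cell cannot be told apart either. *Abcc9*, *Kcnj8* and *Higd1b* were too low to be tested. *Abcc9* had 4 UMIs or fewer in either NP mouse, 3 in G1, 8 in G2, 98 in L1 and 8 in L2. *Kcnj8* had 93 UMIs in L1 and 11 in L2, and *Higd1b* had 149 and 27, against 5 or fewer in each NP or G mouse. The L sums hold more UMIs in total, so these counts are no levels. In CPM, *Abcc9* was at 4.64 in L1 but 0.481 in L2, beside 0.755 in G1 and 1.795 in G2. *Kcnj8* was at 4.40 in L1 but 0.662 in L2, beside 1.26 in G1 and 0.898 in G2. *Higd1b* was at 7.05 and 1.62 CPM in L, beside 0.252 and 0.449 in G. In PI all 3 genes had 0 UMIs.

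*Cspg4* was at 0.235 CPM in NP1 and 0.455 in NP2, 5.03 in G1 and 6.73 in G2, 7.52 in L1 and 6.08 in L2, and 0 in PI1 and 3.199 in PI2. G lay above NP without overlap, 50 UMIs against 2, a ratio of 19.1 (exact counting interval 5.03 to 162; edgeR adjusted p = 0.0001). *Cspg4* was the 1 member that rose from NP to G, where 21.0% of all genes rose, and *Mcam* the 1 that fell, where 18.9% fell (39.9% in either direction). *Mcam* was at 37.4 CPM in NP1 and 41.4 in NP2, 11.3 in G1 and 9.65 in G2, 38.4 in L1 and 33.4 in L2, and 78.7 in PI1 and 67.2 in PI2. Both G mice were lowest. Its fall from NP to G was -1.83 ± 0.20 (adjusted p = 4.23e-06) and its rise from G to L 1.91 ± 0.19 (4.42e-07), while L and NP differed by 0.08 ± 0.16 (interval -0.24 to 0.40, adjusted p = 0.683). Leaving out basal cells with 3 or more members changed *Mcam* little, to 34.3 and 30.8 CPM in L.

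*Des* was at 0.705 CPM in NP1 and 2.73 in NP2, 4.02 in G1 and 2.69 in G2, 18.4 in L1 and 30.6 in L2, and 8.74 in PI1 and 9.60 in PI2, with both L mice highest. It rose from G to L by 3.00 ± 0.35 (adjusted p = 2.74e-06), as 1 of 4 members, where 25.2% of all genes rose. None of the members fell, where 24.9% of all genes did (50.1% in either direction). The others were *Mcam*, *Rgs4* (1.92 ± 0.41, 9.36e-04) and *Rgs5* (1.54 ± 0.52, 0.0214). Without cells of 3 or more members *Des* was at 6.44 CPM in L1 and 26.7 in L2, and it and *Mcam* still passed, whereas *Rgs5* and *Rgs4* did not.

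*Rgs5* in L rested on L1. It was at 76.1 CPM in L1 but 14.9 CPM in L2, against 12.8 and 21.3 CPM in G, so L and G overlapped, and without L1 the log2 difference was -0.05. From NP to L, 5 members rose and 0 fell, where 31.7% of all genes rose and 30.5% fell (62.2% in either direction). They were *Cspg4* (260 UMIs against 2, ratio 22.2, interval 6.09 to 184), *Des* (4.30 ± 0.45, adjusted p = 3.48e-07), *Rgs5* (3.33 ± 0.67, 3.93e-04), *Pdgfrb* (2.37 ± 0.75, 0.0113) and *Rgs4* (1.5 ± 0.41, 0.0041). Without cells of 3 or more members *Des*, *Rgs5* and *Cspg4* still passed. In that setting *Rgs4* turned to -0.81, with 3.22 and 1.65 CPM in L against 6.94 and 2.28 in NP. With DESeq2 the 5 genes that rose were the same.

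Between PI and NP, 0 of the 6 members tested passed in edgeR, where 1.92% of all genes were higher and 2.54% lower (4.47% in either direction, and 2223 genes at an unadjusted p under 0.05). PI basal sums held 28 and 59 cells, so that a count of 0 allowed up to 26.2 and 9.60 CPM. *Rgs4* was at 26.2 and 25.6 CPM in PI, from 3 and 8 UMIs, against 6.82 and 2.28 CPM in NP (2.21 ± 0.75, adjusted p = 0.11). It passed with DESeq2 and with the replicate number as a block, and had 0 UMIs once cells with 3 or more members were left out.

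**Figure D5:**
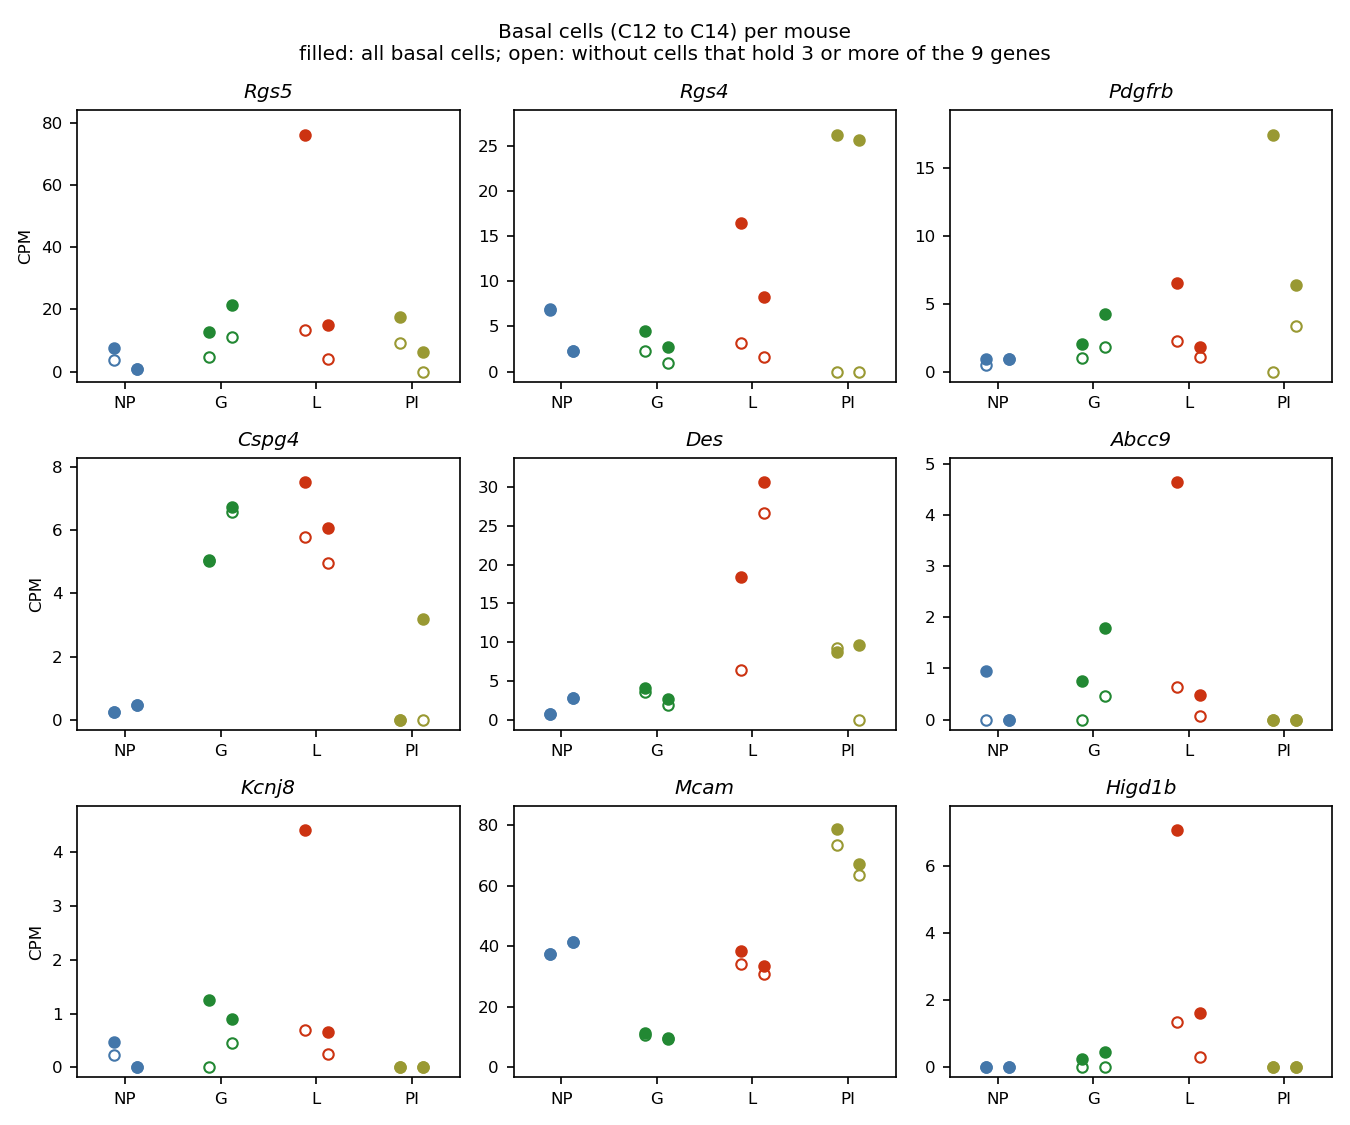
Level of each gene in CPM (vertical axis) in the basal cells (C12 to C14) of each mouse by stage; filled circles use all basal cells, open circles leave out cells that hold 3 or more of the 9 genes. *Mcam* is lowest in both G mice under either choice, *Cspg4* is below 1 CPM in both NP mice, and the filled *Rgs5* point of L1, at 76.1 CPM, falls to 13.48 CPM when such cells are left out.

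Genes with the most similar pattern were taken from 13232 genes by Pearson's correlation of log2(CPM + 1) over the 51 sums, which share 8 libraries and differ in depth. *Rgs5* was closest to the early response gene *Apold1* (r = 0.904), the laminin receptor chain *Itga7* (0.87) and *Lin7a* (0.87), and among members to *Higd1b* (0.908). *Rgs4* was closest to *Itga7* (0.939), *Ccdc3* (0.936) and *Pcp4l1* (0.901), and *Des* to *Itga7* (0.905), *Ccdc3* (0.9) and *Ndufa4l2* (0.89). *Higd1b* was closest to *Lin7a* (0.941), *Timp4* (0.925) and the potassium channel *Kcna5* (0.901), *Cspg4* to *Tbx2* (0.824), *Aoc3* (0.782) and *Rbpms2* (0.778), and *Mcam* to *Sncg* (0.808), *Tmtc1* (0.79) and *Prkg1* (0.782).

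*Pdgfrb* had other neighbours. It was closest to *Cygb* (0.966), *Rarres2* (0.961) and *Aspn* (0.956), the last a proteoglycan of connective tissue, and these stayed at 0.947 to 0.967 when both C15 sums were left out. *Abcc9* was closest to *Hotairm1* (0.941), *Thbd* (0.93) and *Pcdh19* (0.926), and *Kcnj8* to *Hoxd8* (0.871), *Hspa12b* (0.861) and *Ldb2* (0.851). For *Cspg4* the values fell to 0.563 to 0.69 without the C15 sums.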

How the data were processed

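Single cells of 8 mice were captured on the 10x Chromium platform (one library per mouse). The authors counted UMIs per gene and cell with Cell Ranger after alignment with STAR to mm10 (versions not given in the sources used here), and the raw UMI counts they deposited were used as they stand. Cells that passed the filters in the deposited annotation were kept with its clusters, which the authors had called on the same counts after setting aside 1 cluster as doublets. No doublet caller was run. An annotated cell of PI2 that had no barcode in the matrix was left out, and the combined matrix of the same counts was not used.

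UMIs were summed per mouse and cluster with 20 or more cells, and CPM is per total UMIs of the sum. Differences were fitted with edgeR 4.0.16 (R 4.3.3; quasi-likelihood F-test, TMM, filterByExpr with a minimum count of 10 and a total of 15) over all genes, adjusted by Benjamini-Hochberg at 0.05. The fit over C14, C15, C18 and C19 of L mice had the mouse as a term, since the same animals gave each cluster; the stage fit had none. Same replicate numbers at different stages are different mice. In the stage fit a p-value sets a difference against the spread between 2 mice per group. In the fit of L mice it is set against the variation left after the mouse term. Both draw the variance toward that of other genes (3 and 4 residual against median prior degrees of freedom of 12.3 and 12.9). Shares of cells have exact Clopper-Pearson 95% intervals, which cover counting error only, and cells were also thinned to 1000 UMIs each (Python 3.11.15). Ratios against 1 to 3 UMIs have an exact counting interval, and a group at 0 was set to a floor of 3 counts over the group. On simulated data with known changes, 56% of genes changed 4-fold and 15% of those changed 2-fold were recovered between C15 and C18. Alternatives were DESeq2 1.42.0, no filter on low counts, the replicate number as a block or no mouse term, only the 2 clusters compared, C15 cells added to the basal sums, thinned cells, each mouse left out, and cells with 3 or more members left out, the last chosen after seeing the data.

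The 9 members and the gene lists beside them (other mural, smooth muscle, pericyte-endothelium signalling, fibroblast, endothelial, immune, epithelial, Schwann, red blood cell and milk protein genes) were chosen with earlier results of these data known. Named are all members, the 3 genes with the pattern most like each member among genes with 10 CPM or more in 1 sum, and the 2 genes of each list with the largest change in each direction among those called against C18 and C19. A gene that this rule names is not reported here. Other genes named (such as *Epcam*, *Cdh5*, *Myh11* and *Col3a1*) are markers of those lists, chosen after their values were seen.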

Additional observations from a re-analysis of the deposited data

Results flagged for a closer look

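In G2, a pregnant mouse with no C15 cell, 24 of 83 C19 cells (28.92%, exact 95% interval 19.48% to 39.91%) held UMIs of 3 or more of the 9 pericyte marker genes, against 0% of C18 cells of the same mouse (upper limit 11.22%). It is listed because the signal lies in cells outside the comparisons of the report. These 24 cells held 95.3% of the *Rgs5* UMIs of that cluster, a share that the choice of cells by members raises. *Pecam1* was found in 100% of them and in 100% of the other C19 cells, and *Notch3* in 70.8% of them and 0% of the others. Their median depth was 8408.5 UMIs against 6935, and at 1000 UMIs per cell the share with 3 or more members was 3.61%. In G1 the share was 6 of 33 cells (18.2%). Whether such barcodes hold 1 cell or several was not tested.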

How the results depend on the processing

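The direction of all 9 members against C14 and C19, and of 8 against C18, held in every alternative run. *Kcnj8* against C18 (main value 1.33) was -0.15 with DESeq2 and ran from -1.77 to 2.11 when 1 L mouse was left out. Thinning cells to 1000 UMIs, which leaves fewer genes to test, lowered the counts of all genes called higher and lower to 593 and 656 against C18, 593 and 623 against C19, 673 and 845 against C14, 922 and 792 from NP to G, 1510 and 1328 from G to L, 1901 and 1742 from NP to L, and 87 and 158 from NP to PI. The share of C15 cells with 3 or more members was 56.1% (L1) and 47.37% (L2) thinned, and 59.51% and 68.42% with 2 UMIs required per gene. Of the members, those called higher in G than NP (main count 1) numbered 3 without the filter, 3 with the replicate block, 2 with C15 cells added and 0 thinned. In L against G (main 4) they numbered 2 thinned and 2 without cells of 3 or more members, and in L against NP (main 5) 8 without the filter, 1 thinned and 3 without those cells. In PI against NP (main 0) they numbered 1 with DESeq2, 1 without the filter, 1 with the block and 1 with C15 cells added. For most settings these member counts stand without the share over all genes, so they are no result about the members as a set. Over all genes, PI against NP gave 479 higher with DESeq2 (69.5% of its calls, against 43.0%, with the median of all genes at -0.04 against -0.20) and 374 higher and 503 lower without the filter. The cause was not tested.

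With 1 mouse left out, genes called ran from 1412 to 2193 higher and 1146 to 1676 lower from NP to G, and from 52 to 185 higher and 54 to 190 lower from NP to PI (lowest without PI2). Counts of members called are not given for these fits. A stage left with 1 mouse lets a gene pass the filter on low counts through that mouse alone. Signs turned for *Rgs4* from NP to G (0.54 thinned, -0.83 to 0.70 with a mouse left out), *Rgs5* (-0.05 to 2.29) and *Pdgfrb* (-0.65 to 1.2) from G to L with a mouse left out, and *Mcam* from NP to L (-0.14 thinned, -0.04 without cells of 3 or more members, -0.04 to 0.2 with a mouse left out). Without cells of 3 or more members *Rgs4* was -0.81 from NP to L, and from NP to PI *Rgs5* was -0.18, from 1 UMI in PI. The fitted values of *Rgs4* (-7.86) and *Cspg4* (-3.95) from NP to PI in that setting, and of *Cspg4* with a mouse left out (-4.16 to 3.16, the lowest without PI2), rest on 0 UMIs in PI for the negative values, where the floor of 3 counts lies above the NP levels, so they give neither a size nor a direction. Replicate numbers did not pair the mice: deviations of NP, G, L and PI mice of the same number correlated at -0.0433 to 0.0148. Without the mouse as a replicate block, 7 members rather than 8 were higher in C15 than in C18, where 2507 of 8855 genes were called, 48.6% of them higher. Basal sums of PI hold 3 UMIs or fewer of most members in either mouse, and C15 of L2 holds 15 UMIs of *Abcc9* and 3 of *Kcnj8*, which limits these values.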

Other observations

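Genes of the signals between mural and endothelial cells were divided between C15 and C19 of the lactating mice. Of 21 such genes, 7 were higher in C15 than in C19 and 11 lower (median log2 difference -1.13). *Angpt1*, the ligand of the endothelial receptor Tie2, was at 90.04 and 48.95 CPM in C15 of L1 and L2 and higher than in C19 by 4.40 ± 0.63 (edgeR adjusted p = 7.02e-05), and the sphingosine phosphate receptor *S1pr3* was higher by 4.12 ± 0.44 (3.46e-06). The related receptor *S1pr1* was lower in C15, by -6.16 ± 0.43 (5.28e-08), and *Tie1* had 0 UMIs in C15 and 143 in C19, at least 39.2-fold lower. *Dll4* was at 94.07 and 201.6 CPM in C19, and *Pdgfb*, the ligand of the receptor that *Pdgfrb* encodes, at 59.41 and 24.19 CPM.

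Against C18, 10 of the 21 genes were higher in C15 and 6 lower (median 1.38, and 0.79 with genes at 0 set to their bound). *Pdgfa* was at 690.9 and 867.7 CPM in C15 and higher by 5.73 ± 0.34 (adjusted p = 7.85e-09), and *Notch3* by 7.17 ± 0.44 (1.04e-08). Endothelin 1 (*Edn1*) was lower, by -3.53 ± 0.91 (0.00766). Against C14, 11 were higher and 1 lower.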
